A study of Mus musculus with 6 samples.

Results

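Expression of 9 homing and adhesion genes was examined in germinal center (GC) B cells and in resting, or naive, B cells sorted from mouse Peyer's patches, which are lymphoid organs in the wall of the gut. The genes were the integrin chains Itga4, Itgb7, Itgb1, Itgal and Itgb2, the integrin ligands Icam1 and Icam2, the selectin ligand Selplg and the hyaluronan receptor Cd44. They were taken by symbol as genes of homing and adhesion, with no threshold on a measured value, and each of the 9 symbols matched 1 of the 39179 Ensembl identifiers measured by RNA-Seq. GC B cells had been sorted as Fas+GL7+ and naive B cells as Fas-GL7- from the ileum of untreated wild-type C57BL/6 female littermates aged 12 weeks. Cells of 5 mice were pooled for each replicate, with 3 such pools per population. The gate for naive B cells does not separate naive from other Fas-GL7- B cells.

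Integrins are pairs of an alpha and a beta chain that hold leukocytes to vessel walls, to matrix and to other cells. The α4 chain pairs with β7 to bind MAdCAM-1, the addressin of gut venules, or with β1 to bind VCAM-1 and fibronectin, and αL pairs with β2 to form LFA-1, which binds ICAM-1 and ICAM-2. Naive B cells use these receptors to enter Peyer's patches from the blood, whereas GC B cells stay in the follicle, where follicular dendritic cells display ICAM-1 and VCAM-1. PSGL-1, the product of Selplg, carries the sugars that selectins bind, and CD44 binds hyaluronan.

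Values were deposited as FPKM, fragments scaled to transcript length and sequencing depth, and rescaled to TPM, in which each pool sums to 1000000. TPM is per length, so that genes can be compared within a pool. TPM is a share of the transcripts of a pool. In sorted pools such as these, fewer cells that express a gene and less of its RNA per cell cannot be told apart. From the steps between low FPKM values, depth was estimated at between 9850000 and 16150000 reads per pool. Between 66.7% and 70.1% of the low values lay within 0.1 read of a whole number, so these depths are approximate. At these depths Itgb7 and Selplg, the members measured least, had about 90 reads in their lowest pool, and the other 7 genes had about 390 or more. Fas, the death receptor used in the sort, stood at 108, 115 and 119 TPM in GC pools and at 3.05, 3.59 and 3.03 TPM in the naive pools. Of the B cell markers, Cd79a, a chain of the B cell receptor complex, had a mean of 1077 TPM in GC against 2349 TPM in naive B cells, and Ms4a1, which encodes CD20, had 931 against 717 TPM.

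Some genes of other cells were also measured. The 8 T cell markers summed to between 2.67 and 4.68 TPM in GC pools and between 2.60 and 3.66 TPM in naive pools, and none reached the filter for testing. Of 8 myeloid markers with a value, S100a8 and S100a9 were listed at 0 in every pool. The sums were 1.03 to 2.31 TPM in GC and 4.14 to 7.17 TPM in naive pools. Lyz2, the highest, was at 1.38, 1.94 and 0.516 TPM in GC and at 5.28, 2.48 and 2.13 TPM in naive pools. It passed the filter and was not called, though some alternatives called it. Emr1 and Itgam were also higher in every naive pool than in any GC pool, while Csf1r and Csf3r overlapped. Endothelial and stromal markers summed to at most 0.923 TPM in GC and 1.31 TPM in naive pools. The 6 epithelial markers had higher sums in naive pools, at 51.2 to 74.8 TPM against 23.5 to 42.5 TPM in GC pools. Of the 5 that passed the filter, 4 were lower in GC B cells and Krt18 was higher. Over all genes tested, 30.1% were lower and 35.5% higher. The calls of Krt20, Krt18 and Vil1 were lost in some alternatives. The part of epithelial or myeloid RNA in the results below was not tested.

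Upstream sequences are shown for Itgb7 and Itgb1, the β partners of α4, which moved in opposite directions. Icam1 is also shown, as it alone matched the NF-κB letters searched among the 5 members with a sequence. An upstream sequence was at hand for 5 of the 9 genes, from RefSeq on the build GRCm38.p6. Each run holds the 250 bases before the annotated start, 5′ to 3′ on the strand of the gene. Itgb7 lies on chromosome 15 from 102215994 to 102233405, and its window is chr15:102231936-102232185 on the minus strand, inside the gene record, which begins further upstream. Itgb1 lies on chromosome 8 from 128685654 to 128733579, with its window at chr8:128685404-128685653 on the plus strand. Icam1 lies on chromosome 9 from 21015940 to 21028814, with its window at chr9:21015690-21015939 on the plus strand. Capitals mark matches on either strand to CACCC, a box bound by KLF factors, to GGGCGG, the GC box, and to GGAAATTCC, an NF-κB motif.
Itgb7: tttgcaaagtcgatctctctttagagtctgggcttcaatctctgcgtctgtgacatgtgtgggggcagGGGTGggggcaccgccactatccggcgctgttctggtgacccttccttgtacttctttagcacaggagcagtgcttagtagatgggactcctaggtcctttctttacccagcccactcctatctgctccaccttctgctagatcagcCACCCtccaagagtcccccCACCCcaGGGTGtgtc
Itgb1: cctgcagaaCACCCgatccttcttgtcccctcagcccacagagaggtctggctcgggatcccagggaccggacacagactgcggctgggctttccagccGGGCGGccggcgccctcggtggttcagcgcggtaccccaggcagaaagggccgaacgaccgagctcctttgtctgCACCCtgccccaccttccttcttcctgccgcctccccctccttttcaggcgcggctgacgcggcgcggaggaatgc
Icam1: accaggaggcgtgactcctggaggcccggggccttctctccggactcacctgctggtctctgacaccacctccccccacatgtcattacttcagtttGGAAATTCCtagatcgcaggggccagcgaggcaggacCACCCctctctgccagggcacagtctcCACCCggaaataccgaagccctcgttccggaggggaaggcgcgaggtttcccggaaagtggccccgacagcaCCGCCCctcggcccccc

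The CACCC letters occurred 4 times in the window of Itgb7 and 2 times in those of Itgb1 and Icam1. At least 1 match was found in 52.0% of 32851 windows of the same length in the table, at least 2 in 21.1% and at least 4 in 2.14%. The GC box, which matched 1 time each in Itgb1 and Icam1 and not in Itgb7, was found in 32.7% of windows. The NF-κB letters, 1 exact form of the motif, began at position -153 relative to the start of Icam1 and were in 0.286% of windows. Other forms of the motif were not searched, so this share is not that of NF-κB motifs in general. Of the other members with a sequence, the window of Itga4 held 4 CACCC matches and 1 GC box, and that of Cd44 held none of the 3 motifs. These matches describe letters only, and binding was not measured.

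All 9 genes passed an adjusted p of 0.05 for GC against naive B cells in limma, a linear model fitted over 12785 genes on the log2(TPM + 1) scale. Itgb1, Itgb2, Cd44 and Icam1 were higher in GC B cells, and Itgb7, Selplg, Itga4, Itgal and Icam2 were lower. Differences were common in this comparison: 65.6% of all genes tested passed the same threshold, 35.5% as higher and 30.1% as lower in GC B cells. The balance of higher and lower over all genes turned with scaling, as quantile normalization gave 4080 higher and 4450 lower. Each of the 9 genes was above 1 TPM in all 6 pools, and the GC and naive pools overlapped for none of them, as for 70.7% of all genes tested. A call was thus the common outcome for a gene in this comparison, and the sizes of the differences varied widely among the 9. Their median log2 fold change was -0.51, against 0.03 over all genes tested.

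**Figure D1:**
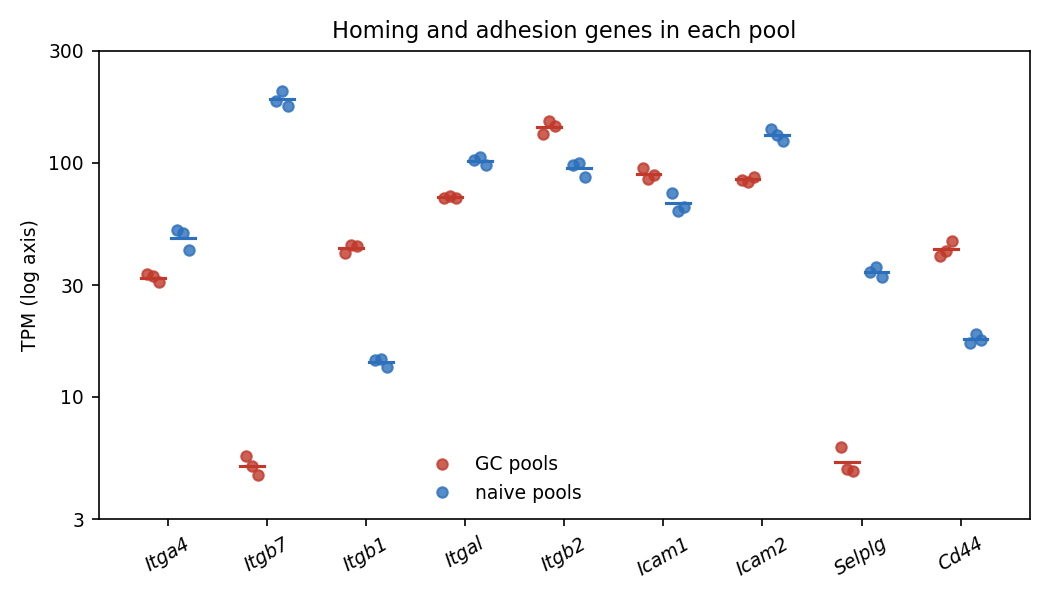
TPM of the 9 genes in the 3 GC pools (red) and the 3 naive pools (blue), on a log axis; points are pools and lines are means of 3. GC and naive points are apart for every gene, with the widest gap for Itgb7 (5.10 against 187 TPM).

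The β7 chain showed the largest difference of the group. Itgb7 (ENSMUSG00000001281) had 5.58, 5.07 and 4.64 TPM in GC replicates 1, 2 and 3. In naive replicates 1, 2 and 3 it was at 184, 202 and 175 TPM. Every naive pool was thus more than 30 times every GC pool, and the means were 5.10 ± 0.471 TPM in GC against 187 ± 13.6 TPM in naive B cells (SD, n = 3 pools each), a ratio of 36.7. The log2 fold change was -4.95 (SE 0.0861, adjusted p = 1.67e-07 in limma). Only 27 of the 12785 genes tested (0.211%) fell further. Among these genes Itgb7 stood at percentile 94.5 of mean TPM in naive and at percentile 24.1 in GC B cells.

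The β1 chain, the other partner of α4, moved the opposite way. Itgb1 (ENSMUSG00000025809) was at 41.3, 44.5 and 44.0 TPM in GC pools and at 14.4, 14.5 and 13.5 TPM in the naive pools. All GC pools lay near 3 times the naive pools, and the spread within each population was small. The log2 fold change was 1.55 (SE 0.0661, adjusted p = 3.76e-06 in limma), with 8.41% of genes tested rising more.

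Itga4 (ENSMUSG00000027009; chromosome 2, 79255426 to 79333114), the α4 chain shared by both, changed much less than either partner. It had 33.4, 32.8 and 30.9 TPM in GC replicates 1, 2 and 3 and 51.5, 49.8 and 42.3 TPM in naive replicates 1, 2 and 3. The lowest naive pool, replicate 3, was still above the highest GC pool. Its log2 fold change was -0.55 (SE 0.0875, adjusted p = 0.00165 in limma).

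The balance of the β chains was followed within each pool as the ratio of Itgb7 to Itgb1 TPM, which does not depend on how pools are scaled. This ratio was 0.135, 0.114 and 0.105 in GC replicates 1, 2 and 3 and 12.8, 13.9 and 13.0 in naive replicates 1, 2 and 3. Itgb7 thus made up between 9.54% and 11.9% of the summed β1 and β7 transcripts in GC pools and between 92.8% and 93.3% in naive pools. The sum itself was between 46.9 and 49.6 TPM in GC and between 189 and 216 TPM in naive pools. The ratio was 113 times lower in GC B cells (log2 difference -6.81). Itga4 relative to this sum rose from between 0.224 and 0.260 in naive pools to between 0.634 and 0.712 in GC pools (log2 difference 1.49). For each ratio the 3 GC pools and the 3 naive pools did not overlap. A two-sided exact permutation test gave p = 0.10 for each of the 4 ratios examined, which is the smallest value that 3 against 3 pools allow (0.10 after Benjamini-Hochberg adjustment), so this test cannot reach 0.05. Because TPM measures RNA, the shares say nothing of how many chains were paired at the surface.

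**Figure D2:**
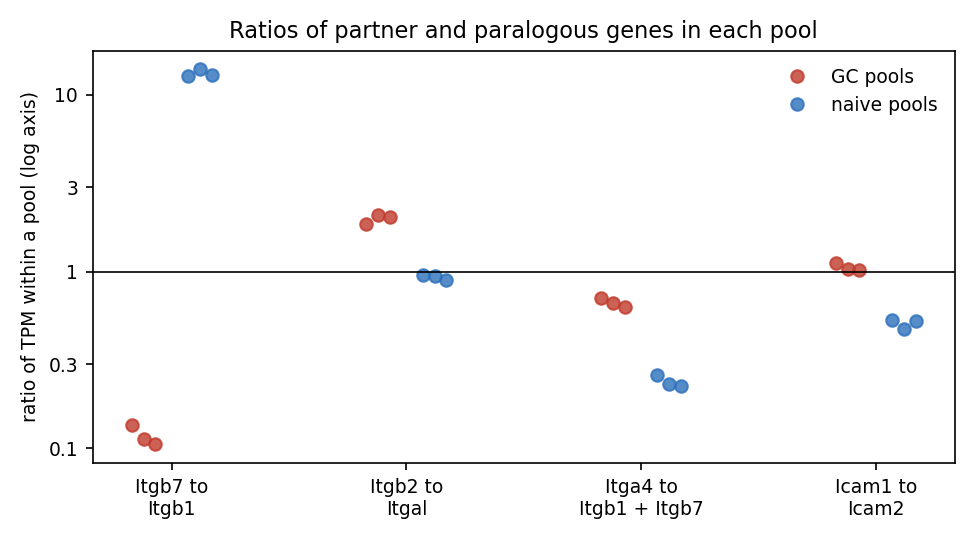
Ratio of TPM within each pool (log axis) for 4 pairs of genes, in the 3 GC pools (red) and 3 naive pools (blue); the line marks a ratio of 1. Itgb7 to Itgb1 lies between 12.8 and 13.9 in naive pools and between 0.105 and 0.135 in GC pools.

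A second partner of β7 is αE, encoded by Itgae, which marks intraepithelial lymphocytes. Itgae was between 0.103 and 0.348 TPM over the 6 pools, under the filter, so that β7 transcripts in naive B cells came with hardly any αE transcript. Among the T cell markers, the levels of Cd3e, a T cell receptor subunit, were between 0.0945 and 0.799 TPM. Cd3g reached 1.81 TPM in naive replicate 2, and Cd4 reached 1.83 TPM in GC replicate 3. The part of T cell RNA in the β7 values was not tested.

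The chains of LFA-1 diverged. Itgal (ENSMUSG00000030830; chromosome 7, 127296139 to 127335137), which encodes αL, was at 70.8, 72.2 and 70.3 TPM in GC pools and at 102, 106 and 97.2 TPM in naive pools. It fell by 0.51 on the log2 scale (SE 0.0489, adjusted p = 0.000149 in limma). Itgb2 (ENSMUSG00000000290; chromosome 10, 77530329 to 77565708), which encodes the β2 chain shared by all leukocyte β2 integrins, was at 132, 151 and 143 TPM in GC pools and at 97.5, 99.4 and 86.9 TPM in naive pools. Its log2 fold change was 0.58 (SE 0.0746, adjusted p = 0.000602 in limma). The GC pools were below all naive pools for the α chain and above all naive pools for the β chain.

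The ratio of Itgb2 to Itgal was accordingly 1.86, 2.09 and 2.03 in GC pools and 0.954, 0.939 and 0.894 in naive pools, so both chains had near equal levels in naive B cells and β2 was about 2 times αL in GC B cells (log2 difference 1.10). Of the other α chains that pair with β2, looked at after the values were seen, Itgam was between 0.0418 and 0.166 TPM in GC and between 0.891 and 1.23 TPM in naive pools. Itgax was between 0.388 and 1.45 TPM over all pools, and Itgad did not exceed 0.0276 TPM. Among these α partners of β2, αL alone exceeded 1.5 TPM in either population.

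The ligands of LFA-1 also moved apart. Icam1 (ENSMUSG00000037405), which is induced on activated cells and binds LFA-1 with high affinity, was at 94.97, 85.5 and 88.7 TPM in GC pools and at 73.9, 62.3 and 64.7 TPM in naive pools. This was the smallest difference of the 9 genes, with a log2 fold change of 0.42 (SE 0.0790, adjusted p = 0.00349 in limma), and 31.4% of genes tested rose more. Icam2 (ENSMUSG00000001029; chromosome 11, 106377656 to 106388139), the constitutive ligand, was at 84.6, 82.5 and 87.1 TPM in GC pools and at 139, 132 and 124 TPM in naive pools. Its log2 fold change was -0.63 (SE 0.0574, adjusted p = 0.00012 in limma). Icam1 relative to Icam2 was 1.12, 1.04 and 1.02 in GC pools and 0.530, 0.473 and 0.524 in naive pools (log2 difference 1.06). Naive B cells thus held about 2 Icam2 transcripts for each Icam1 transcript, and GC B cells held nearly equal levels of both.

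Selplg (ENSMUSG00000048163; chromosome 5, 113817798 to 113832528), which encodes the selectin ligand PSGL-1, was at 6.10, 4.93 and 4.84 TPM in GC pools. In naive pools it was at 34.1, 35.9 and 32.4 TPM. The naive mean was 6.45 times the GC mean, and the log2 fold change was -2.49 (SE 0.104, adjusted p = 3.51e-06 in limma). Genes that fell further made up 2.36% of those tested.

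Cd44 (ENSMUSG00000005087; chromosome 2, 102811141 to 102901669) rose. It was at 39.9, 42.1 and 46.2 TPM in GC pools and at 17.0, 18.6 and 17.5 TPM in naive pools, so that every GC pool was more than 2 times every naive pool. The log2 fold change was 1.22 (SE 0.0769, adjusted p = 2.12e-05 in limma). Cd44 is spliced into many isoforms, which the gene-level values do not separate.

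**Figure D3:**
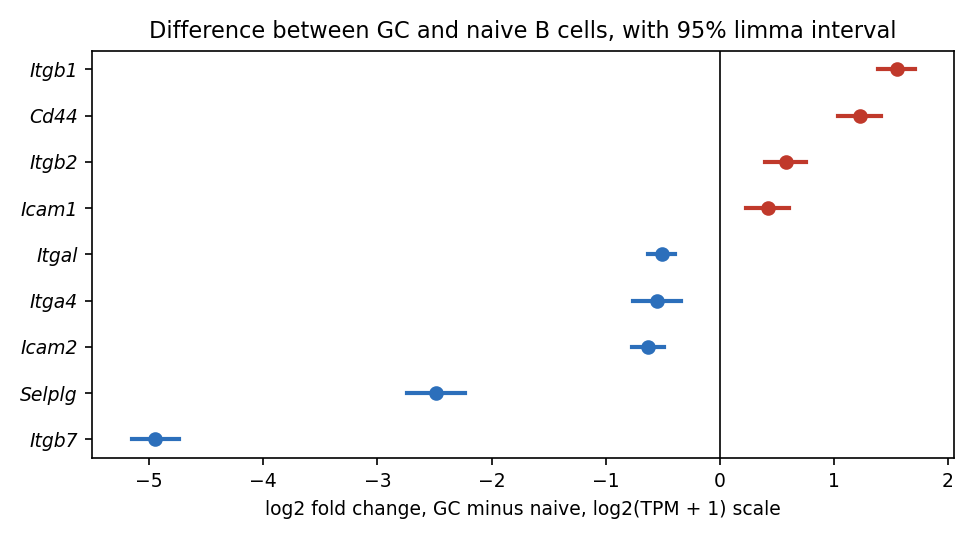
Log2 fold change of each gene, GC minus naive, on the log2(TPM + 1) scale, with its 95% interval from limma (3 GC and 3 naive pools). The intervals of Itgb1, Cd44, Itgb2 and Icam1 lie above 0 and those of the other 5 genes lie below 0, with Itgb7 at -4.95.

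The order of the levels differed between the populations, most in the places of Itgb7 and Itgb1. In naive B cells it ran from Itgb7 (187 TPM) through Icam2 (132), Itgal (102), Itgb2 (94.6), Icam1 (67.0), Itga4 (47.9), Selplg (34.1) and Cd44 (17.7) to Itgb1 (14.1 TPM). The ranges of the 3 pools overlapped between neighbours only for Itgal and Itgb2. In GC B cells Itgb2 led with 142 TPM, followed by Icam1 (89.7), Icam2 (84.7), Itgal (71.1), Itgb1 (43.3), Cd44 (42.7), Itga4 (32.3), Selplg (5.29) and Itgb7 (5.10 TPM). Here the pools overlapped between Icam1 and Icam2, between Itgb1 and Cd44, and between Selplg and Itgb7. Itgb7 thus held the first place in naive B cells and shared the last in GC B cells, and Itgb1 moved from place 9 to place 5. Itgb2 moved from place 4 to place 1, Icam1 from place 5 to place 2 and Cd44 from place 8 to place 6. Icam2, Itgal, Itga4 and Selplg each moved by 1 place.

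**Figure D4:**
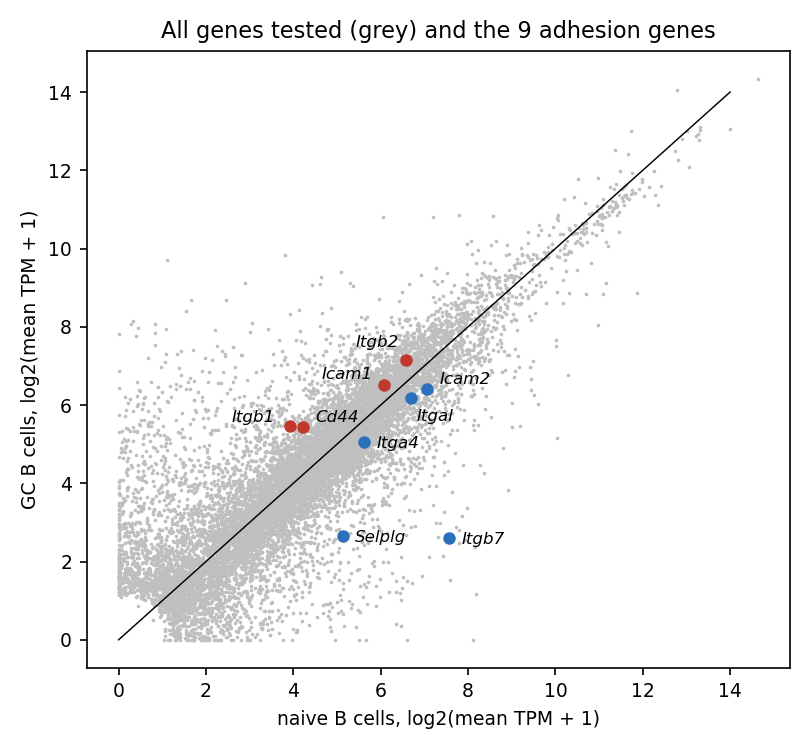
Mean level in GC B cells against naive B cells, as log2(mean TPM + 1), for the 12785 genes tested (grey) and the 9 genes (red, higher in GC; blue, lower in GC). Itgb7 and Selplg lie far below the line of equal levels, while Itgal, Itga4, Icam1, Icam2 and Itgb2 lie within the main cloud.

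Other genes of adhesion were read from 5 lists with 87 genes in all, of which 46 passed the filter, 11 were higher and 23 were lower in GC B cells, and 12 were not called. Over all genes tested the shares were 35.5% higher and 30.1% lower. Among the 21 other integrin chains, 5 passed the filter and 2 were called, both higher in GC B cells. Itgb3, the β3 chain, which pairs with αv, was at 56.9, 56.6 and 65.2 TPM in GC pools and at 12.1, 13.5 and 12.0 TPM in naive pools (log2 fold change 2.16, adjusted p = 2.66e-06 in limma). With 59.6 TPM in GC B cells, Itgb3 was above Itgb1. Itga6, the α6 chain of laminin receptors, was at 19.9 ± 0.975 TPM in GC against 13.2 ± 0.342 TPM in naive B cells (SD, n = 3; log2 fold change 0.56, adjusted p = 0.000639 in limma). Itgav, the αv partner of β3, looked at after the values were seen, was at 26.0 ± 3.78 TPM in GC against 22.1 ± 2.16 TPM in naive B cells (SD, n = 3) and was not called (log2 fold change 0.22, 95% interval -0.08 to 0.52). The median log2 fold change of the 5 genes tested was 0.26, beside 0.03 over all genes.

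The genes that regulate the activation of integrins, some as inhibitors, or tie integrins to actin numbered 29, of which 24 passed the filter. Of the 24, 6 were higher, 12 lower and 6 not called, beside 35.5% higher and 30.1% lower over all genes tested. Rasgrp2, which encodes the exchange factor CalDAG-GEFI that loads Rap1, was at 125 ± 3.40 TPM in GC against 682 ± 37.9 TPM in naive B cells (SD, n = 3; log2 fold change -2.43, adjusted p = 2.83e-07 in limma). The Rap1 genes themselves moved in opposite directions, with Rap1a rising from 62.9 to 148 TPM (log2 fold change 1.22) and Rap1b falling from 309 to 193 TPM (-0.68). Sipa1, a GTPase-activating protein for Rap1, fell by 0.52 and Sharpin, an inhibitor of integrin activation, fell by 0.75 on the log2 scale. Cyth1, encoding the β2-binding protein cytohesin-1, fell by 0.25.

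Talin and kindlin bind β chain tails directly. Tln1 was at 105 ± 3.57 TPM in GC against 127 ± 14.9 TPM in naive B cells (SD, n = 3; log2 fold change -0.27, adjusted p = 0.037 in limma), a call that 8 of 16 alternatives lost, with adjusted p up to 0.11. Fermt3, the kindlin of blood cells, was at 209 ± 4.96 and 191 ± 8.91 TPM and was not called (log2 fold change 0.13, adjusted p = 0.0504 in limma), though 5 of 16 alternatives called it. Also above 100 TPM and not called were Stk4 (log2 fold change 0.03), Parvg (0.07) and Ptk2b (-0.09), whose signs were not fixed for Stk4 and Parvg, as alternatives turned them, and 4 of 16 alternatives called Ptk2b. Among genes for proteins of adhesion sites, Zyx fell from 46.3 to 7.66 TPM (log2 fold change -2.46), Flna from 450 to 166 TPM (-1.43) and Vcl from 5.53 to 0.411 TPM (-2.20). Vcl passed the filter through its naive pools alone, so that its call adds little. Ptk2, which encodes focal adhesion kinase, rose from 3.33 to 13.5 TPM (log2 fold change 1.74), and Ilk, the integrin-linked kinase, rose from 91.6 to 149 TPM (0.69). The median of the 24 genes tested was -0.26.

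A list of 11 genes held those that help to build the sugars of PSGL-1, and Tpst1 and Tpst2, which sulfate tyrosines of the protein. Of the 11, 9 passed the filter, 6 were lower, 1 was higher and 2 were not called. The median log2 fold change of the 9 was -0.93, beside 30.1% lower and a median of 0.03 over all genes tested. The call of St3gal4, a sialyltransferase counted among the 6, was lost in 8 of 16 alternatives. Tpst2, a tyrosine sulfotransferase, was at 8.60, 7.24 and 8.77 TPM in GC and at 42.5, 47.2 and 51.9 TPM in naive pools (log2 fold change -2.39, adjusted p = 4.78e-06 in limma). St3gal6, a sialyltransferase, fell by 1.72, B4galt1, a galactosyltransferase, fell by 1.27, and Gcnt1, which starts core 2 branches, fell by 1.05 on the log2 scale. The higher gene was C1galt1 (log2 fold change 0.44, adjusted p = 0.0182 in limma), a core 1 galactosyltransferase named after its values were seen, and without GC replicate 1 its adjusted p was 0.0575. Fut7, the fucosyltransferase that completes selectin ligands, was listed at 0 in all GC pools and in naive replicates 2 and 3, and at 0.716 TPM in naive replicate 1.

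CD44 binds the ERM proteins, which join it to actin, and its list with hyaluronan genes held 10 genes. Of the 10, 7 passed the filter, 2 were higher, 4 lower and 1 was not called (median log2 fold change -0.61). Over all genes tested, 35.5% were higher and 30.1% lower. Rdx, encoding radixin, was at 1.24, 0.914 and 0.697 TPM in GC and at 32.3, 32.7 and 28.3 TPM in naive pools (log2 fold change -4.05, adjusted p = 1.31e-06 in limma). Rdx reached the filter through its naive pools, since 1 GC pool alone was above 1 TPM. The other ERM genes fell less and stayed abundant, Ezr from 453 to 244 TPM (-0.89) and Msn from 585 to 381 TPM (-0.61). Nf2, which encodes the related protein merlin, rose from 24.8 to 47.6 TPM (0.92). Hmmr, a hyaluronan receptor that also acts in mitosis, was at 34.1 ± 0.971 TPM in GC against 1.13 ± 0.284 TPM in naive B cells (SD, n = 3; log2 fold change 4.05, adjusted p = 8.14e-07 in limma), and it reached the filter through its GC pools. Of the 5 genes of this list with at least 1 TPM in all 6 pools, 1 was higher and 3 were lower.

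Of 16 ligands and junction molecules of endothelium, stroma and matrix, 15 were under the filter, among them Vcam1 and Madcam1, the ligands of α4 integrins, which did not exceed 0.388 and 0.554 TPM in any pool. The exception was Pecam1, which encodes the adhesion molecule CD31 of endothelium and leukocytes. It was at 23.7, 24.2 and 21.9 TPM in GC and at 124, 132 and 121 TPM in naive pools (log2 fold change -2.38, adjusted p = 5.14e-07 in limma), while Cdh5, an endothelial marker, did not exceed 1.05 TPM. Pecam1 was thus lower in all 3 GC pools, as Itgb7 and Selplg were.

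**Figure D5:**
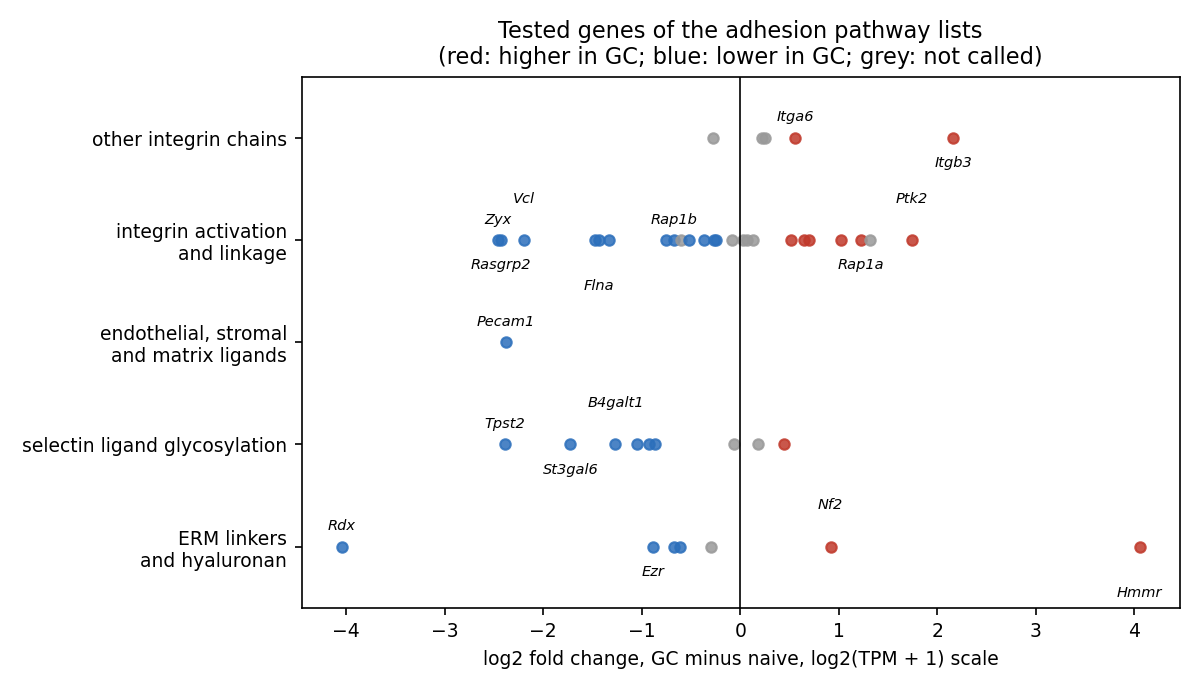
Log2 fold change, GC minus naive, on the log2(TPM + 1) scale, of the 46 genes tested from 5 adhesion lists, each point a gene (red, higher in GC; blue, lower; grey, not called by limma). Itgb3 (2.16) is the farthest from 0 among other integrin chains; Rdx (-4.05) and Hmmr (4.05), the farthest of all, passed the filter through 1 population, naive for Rdx and GC for Hmmr.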

How the data were processed

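GC and naive B cells of Peyer's patches were compared by RNA-Seq in 3 pools each. After demultiplexing with CASAVA 1.8, the authors trimmed adapters with cutadapt 1.9, estimated gene levels with RSEM 1.2.25 against transcripts of NCBIm38 v75, and deposited FPKM per gene, rounded to 2 decimals. The labels and the methods name different RNA extraction reagents. RSEM divides reads shared by similar genes.

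FPKM was divided by the pool total and multiplied by 1000000 to give TPM. Symbols came from the annotation of NCBIM37 (33398 of 39179 identifiers), and coordinates and upstream sequences from RefSeq on GRCm38.p6. The 12785 genes that reached 1 TPM in 3 or more pools were tested with limma 3.58.1 in R 4.3.3 (lmFit, eBayes with a trend) on log2(TPM + 1), which understates changes of low genes, with Benjamini-Hochberg adjustment over all genes. The fit was tested on simulated data. Ratios were tested by exact permutation in scipy 1.17.1 (Python 3.11.15). The replicates were separate pools.

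The 9 genes were listed by name and function, without a threshold on values, but they and the lists were chosen with earlier results of these data known. Beside the 9 genes and Fas, the text names in each list up to 4 genes with the largest called change without overlap between populations. Genes above 100 TPM are also named. Others are said to be chosen after their values were seen, or are partners or ligands of the 9 genes. Some cell type markers, and Tpst1, Fut7 and St3gal4, were named outside these rules. Alternatives covered the pseudocount, filters, FPKM as deposited, scaling, the variance trend, the replicate block, leaving out each pool, and, added after seeing the data, an adjustment for the GC content and length of transcripts.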

Additional observations from a re-analysis of the deposited data

How the results depend on the processing

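All 9 genes kept their direction and an adjusted p under 0.05 in limma under each of the 16 alternatives run, so 4 were higher and 5 lower in GC B cells throughout. The log2 fold change of Itgb7 ranged from -5.17 to -4.86, that of Itgb1 from 1.36 to 1.61, and that of Icam1, the smallest, from 0.28 to 0.49. The highest adjusted p was 0.0246, for Icam1 under quantile normalization. Replicate numbers are shared by both populations, but whether equal numbers pair the pools is not stated, so the main fit used no pairing. The deviations of pools with the same number correlated at 0.083, 0.0225 and 0.0456 across genes. Those of pools with different numbers correlated at between -0.0746 and 0.0298. These values do not settle whether the pools were paired. With the replicate block, 4342 genes were higher and 3618 lower in GC B cells over all genes, against 4540 and 3852 without it, no call among the 9 genes changed, and Itgb7 had an adjusted p of 3.13e-05. The balance over all genes turned under quantile normalization (4080 higher, 4450 lower), centring of pools on their median (4227 and 4326) and the correction for GC content and length (3711 and 4325). Scaling moved the median log2 fold change of all genes from 0.03 to -0.06 under quantile normalization and to -0.08 after the correction for GC content and length, which covered 86.3% of the genes tested. The ratios kept their direction without any 1 pool. The calls of Tln1 and St3gal4 were lost in 8 of 16 alternatives each. Depth limits Itgb7 and Selplg in GC pools, at about 90 reads in the lowest pool.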
